A study of Mus musculus with 14 samples.

Results

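The genes described here encode 7 subunits of the type A receptor for γ-aminobutyric acid (GABA), named Gabra2, Gabra3, Gabra4, Gabra5, Gabrb1, Gabrb2 and Gabrg1. They were taken by name from the 21568 gene symbols of the tables, which also hold 10 other subunit genes of this receptor. They were picked with their levels in these data already known, so the levels by cell class and by diet given here are a description of them and lend no support to the choice. The method was Drop-seq, where each droplet pairs a cell with a barcoded bead and transcripts are counted by unique molecular identifiers (UMIs), 1 count per captured molecule. The tissue was punched from the lateral hypothalamic area of male wildtype C57BL/6J mice. The 7 control mice had free access to a chow matched in taste to the high fat diet, and the other 7 mice had free access to the high fat diet. All mice lived on a reversed light cycle, and the labels give no age or length of feeding. Mice are named by diet and number, and the numbers do not pair them.

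A GABA-A receptor is a ring of subunits around a chloride channel, most often built from α and β subunits with a γ or δ subunit. GABA binds where an α meets a β subunit, and benzodiazepines bind where certain α subunits meet a γ subunit, so the choice of subunits sets where a receptor sits and which drugs act on it. The lateral hypothalamus holds intermixed glutamatergic neurons, marked by the vesicular glutamate transporter Slc17a6, and GABAergic neurons, marked by the vesicular GABA transporter Slc32a1, together with neurons that make hypocretin or melanin-concentrating hormone (MCH). Glia can also carry GABA-A receptors.

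Libraries held 147470 to 5611524 UMIs. Of 28410 barcodes, 15378 reached 500 UMIs and 300 genes with no more than 20% of UMIs from the mitochondrial genome, and 15164 were kept after 214 predicted doublets were removed. Across libraries, 3 barcode sequences were shared among the cells that passed. Control mice 1 and 2 and high fat diet mouse 1 stood apart: 33.9 to 49.1% of their neurons fell in 1 subcluster that held at most 1.08% of the neurons of any other mouse. That subcluster belonged to no named class. All of these mice were in sequencing pool 1, so a difference between the pools cannot be told apart from them. Neurons that could be given to no class made up 16.7 to 58.1% of neurons in control mice (median 31.5%). In high fat diet mice they made up 15.5 to 76.9% (median 22.3%), where the highest was mouse 7 with 13 neurons. High fat diet mouse 7 had fewer than 10 cells of either main neuron class and is left out of both. Cells were clustered without any gene named Gabr, and each class is a set of clusters that resembles a cell type by its markers. Slc17a6 was seen in 88.8% of Slc17a6 neurons and 3.2% of Slc32a1 neurons, and Slc32a1 in 8.0 and 85.0%. The astrocyte marker Aqp4 was seen in 49.8% of astrocytes and Pdgfra in 79.8% of oligodendrocyte precursor cells.

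**Figure D1:**
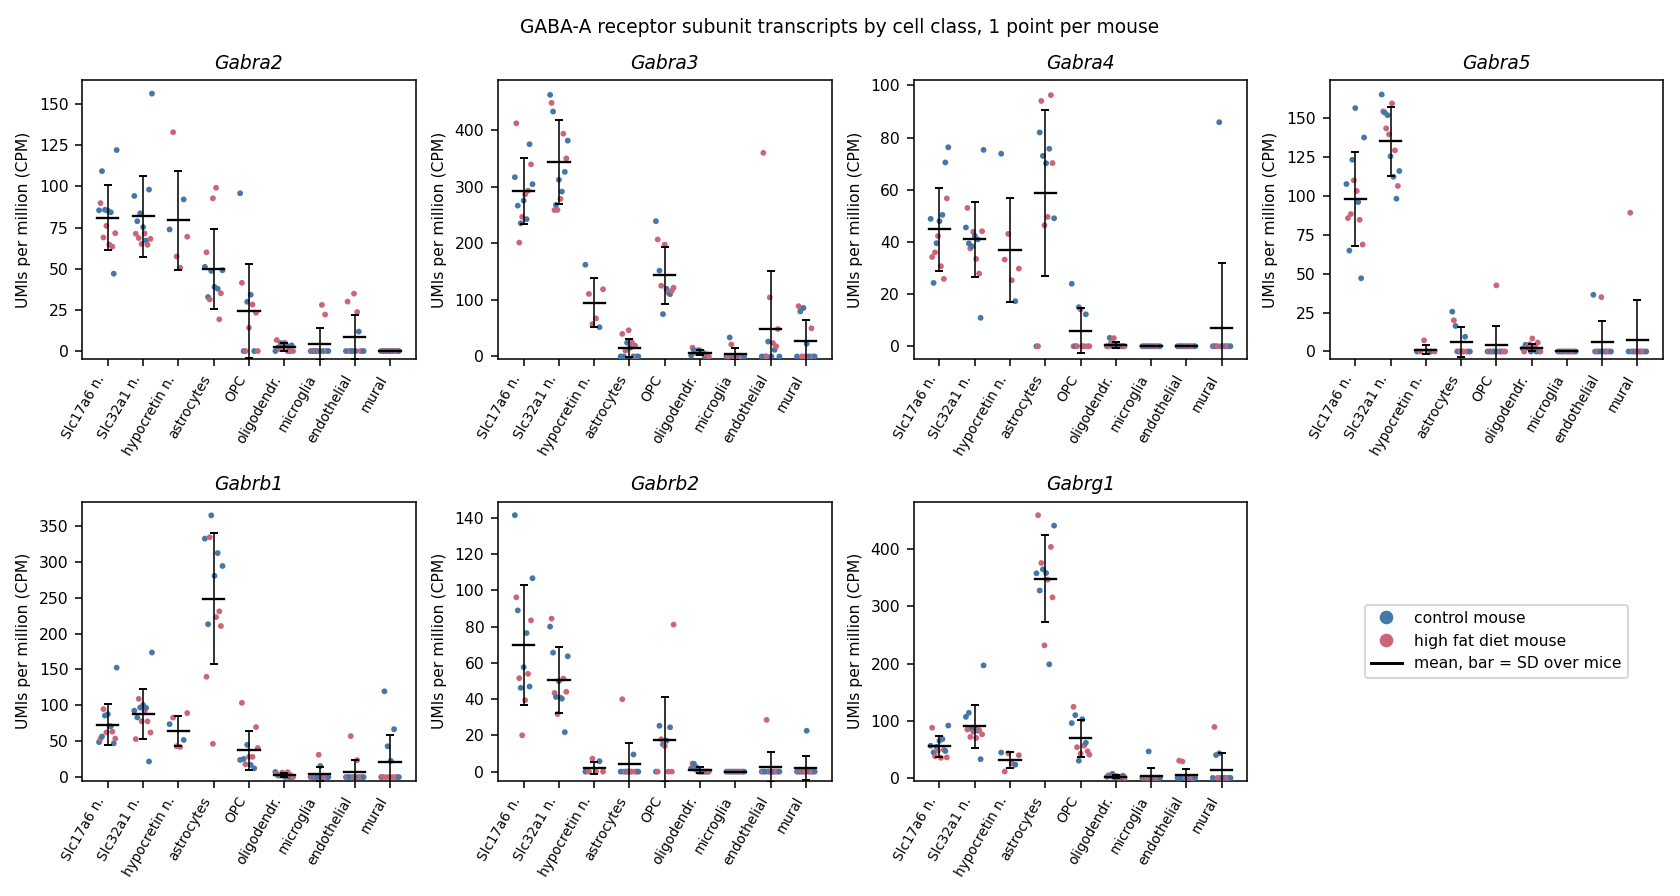
Level (CPM, UMIs per 1000000 UMIs, y axis, linear, 1 scale per gene) of the 7 subunit genes in 9 cell classes (x axis; n., neurons; OPC, oligodendrocyte precursor cells). Points are mice with at least 10 cells of the class, blue for control and red for high fat diet, and black lines and bars are the mean and SD over mice. Gabrb1 and Gabrg1 have their highest means in astrocytes, at 249 and 349 CPM, and Gabra5 is near 0 outside the Slc17a6 and Slc32a1 neurons.

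In GRCm38 (GENCODE M21), 4 of the 7 genes form 1 cluster of 1397991 bp on chromosome 5. In order they are Gabrg1 at chr5:70751047-70842617 on the minus strand, Gabra2 at chr5:70957597-71095849 on the minus strand, Gabra4 at chr5:71569749-71658308 on the minus strand and Gabrb1 at chr5:71658113-72149037 on the plus strand. Gabra4 and Gabrb1 are head to head and their annotated genes overlap by 196 bp. Gabra5 lies at chr7:57407672-57510059 on the minus strand. Gabrb2 lies at chr11:42419757-42629028 on the plus strand. Gabra3 lies at chrX:72432681-72656848 on the minus strand, with Gabre and Gabrq on either side. Whether the counting used strand is not given in the sources used here, so the counts of Gabra4, Gabrb1 and Gabra5, whose annotations overlap others on the opposite strand, are less certain.

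The bases just before the start sites of the 5 members on the minus strand are shown. Gabrb1 of the chromosome 5 cluster lies on the plus strand and is not printed. The 4 genes of that cluster were the members with most RNA in astrocytes relative to neurons, while Gabra3 and Gabra5 had little there. Sequences are from RefSeq (GRCm38.p6), all on the minus strand, read 5′ to 3′ towards the gene, with annotated exons left out. Capitals mark CG dinucleotides, the site of DNA methylation and a mark of CpG island promoters.
Gabra2: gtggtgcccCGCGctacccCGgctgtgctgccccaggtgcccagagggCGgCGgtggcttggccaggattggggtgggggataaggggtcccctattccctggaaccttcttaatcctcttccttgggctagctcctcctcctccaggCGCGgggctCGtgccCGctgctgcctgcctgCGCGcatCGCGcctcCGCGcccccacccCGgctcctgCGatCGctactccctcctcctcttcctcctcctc
Gabrg1: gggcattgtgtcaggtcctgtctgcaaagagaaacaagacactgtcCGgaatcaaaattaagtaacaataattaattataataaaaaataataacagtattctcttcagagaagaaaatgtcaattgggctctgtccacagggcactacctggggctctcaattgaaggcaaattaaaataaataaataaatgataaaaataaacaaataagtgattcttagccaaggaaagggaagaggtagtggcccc
Gabra4: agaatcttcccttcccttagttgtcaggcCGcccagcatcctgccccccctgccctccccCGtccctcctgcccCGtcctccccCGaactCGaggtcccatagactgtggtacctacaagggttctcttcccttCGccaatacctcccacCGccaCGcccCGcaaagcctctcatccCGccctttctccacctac
Gabra5: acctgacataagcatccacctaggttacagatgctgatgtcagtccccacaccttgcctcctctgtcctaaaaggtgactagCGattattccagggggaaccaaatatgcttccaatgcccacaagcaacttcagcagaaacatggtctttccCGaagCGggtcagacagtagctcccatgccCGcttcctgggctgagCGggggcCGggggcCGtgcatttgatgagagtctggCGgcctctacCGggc
Gabra3: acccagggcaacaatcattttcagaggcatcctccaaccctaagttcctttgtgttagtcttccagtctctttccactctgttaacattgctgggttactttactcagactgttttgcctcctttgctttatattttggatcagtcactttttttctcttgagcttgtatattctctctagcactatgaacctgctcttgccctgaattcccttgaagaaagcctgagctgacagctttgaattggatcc
The Gabra2 stretch is chr5:71095850-71096099, the Gabrg1 stretch chr5:70842618-70842867, the Gabra4 stretch chr5:71658364-71658558, the Gabra5 stretch chr7:57510060-57510309 and the Gabra3 stretch chrX:72656920-72657169. The Gabra2 stretch held 18 CG dinucleotides at 70.0% G and C, the Gabra4 stretch 10 in 195 bases, and the Gabrg1 stretch 1 at 35.6% G and C. The Gabra5 stretch held 9 and the Gabra3 stretch 0. Over full RefSeq promoter windows of 300 bases, which run from 250 bases before to 50 after a start, the counts were 25 for Gabra2, 25 and 9 for the windows of Gabrb1, 12 for Gabra4, 13 for Gabra5, 11, 9 and 9 for Gabrb2, 3 for Gabrg1 and 0 in both windows of Gabra3. The median of 32851 such windows was 7. The GC box GGGCGG, searched on both strands, matched 2 times in each of the Gabra2 and Gabra4 windows. It matched 1 time in the Gabrb2 window with 11 CG dinucleotides, and is present in 35.7% of all windows. The 4 clustered genes thus held CG counts both below and above the median. The TATA box TATAAA, also searched on both strands, matched 1 time in each of the overlapping windows of Gabra3. It also matched 1 time in the Gabrb2 window with 11 CG dinucleotides, and is present in 13.6% of all windows. A match or its absence describes these letters only.

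Levels are UMIs per 1000000 UMIs of the class in a mouse (CPM). Drop-seq counts molecules from their 3′ ends, and capture differs between genes, so each gene is compared with itself across classes and levels are not ranked between genes. The neuron classes held 1710 Slc17a6 neurons and 2469 Slc32a1 neurons, with median depths of 4310 and 4380 UMIs per cell, and 13 mice had at least 10 cells of each. Errors given with ± are the SD over mice.

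Gabrg1, which encodes a γ subunit, was the member with the lowest ratio of Slc17a6 to Slc32a1 neurons. It ranged from 35.1 to 91.5 CPM over mice in Slc17a6 neurons (median 49.3) and from 32.7 to 197 CPM in Slc32a1 neurons (median 83.6). Within a mouse the log2 ratio of CPM + 5 averaged −0.62 ± 0.48 (SD, n = 13), and Gabrg1 was higher in Slc32a1 neurons in 11 of 13 mice. Cells were sorted into these classes by expression, and no test is given.

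Gabra5, whose α subunit is best known from receptors outside synapses, was also higher in Slc32a1 neurons in 11 of 13 mice. It ranged from 47.0 to 156 CPM in Slc17a6 neurons (median 95.9) and from 98.0 to 165 CPM in Slc32a1 neurons (median 139). The log2 ratio was −0.49 ± 0.43, and the difference of the class means, 37.0 CPM, was larger than the SD over mice in either class. The mouse ranges overlapped.

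Gabra3, whose α subunit forms benzodiazepine-sensitive receptors, had a log2 ratio of −0.23 ± 0.24, with 11 of 13 mice higher in Slc32a1 neurons. Its class means, 292 ± 58.7 and 344 ± 73.9 CPM, differed by less than their SD. Gabrb1, a β subunit gene, gave −0.21 ± 0.41, again higher in Slc32a1 neurons in 11 of 13 mice. Gabrb2, another β subunit gene, went the other way at 0.37 ± 0.44 and was higher in Slc17a6 neurons in 11 of 13 mice. Among the other genes of the members' clusters, Gabrq on the X chromosome stood at −0.59 ± 0.51 and Gabrg3 on chromosome 7 at −0.01 ± 0.60, and Gabra6 and Gabre had means under 4 CPM. Gabra2 and Gabra4 had no common direction, at −0.01 ± 0.37 (8 of 13 mice higher in Slc17a6 neurons) and 0.13 ± 0.69 (7 of 13). Gabra2 is known from benzodiazepine-sensitive synapses and Gabra4 from extrasynaptic receptors.

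The classes were also redefined as single neurons with a UMI of 1 transporter and none of the other. The ratios were then −0.48 ± 0.45 for Gabrg1, −0.67 ± 0.45 for Gabra5, −0.29 ± 0.32 for Gabra3 and −0.26 ± 0.21 for Gabrb1. Each of these genes was higher in Slc32a1 neurons in 12 of 13 mice. The ratio of Gabrb2 was 0.15 ± 0.43, and Gabrb2 was higher in Slc17a6 neurons in only 8 of 13 mice. That of Gabrq, a gene that is no member, was −0.09 ± 0.54 by this definition. Without the 3 mice that stood apart the ratios of the 5 members were −0.60, −0.37, −0.16, −0.13 and 0.34 in the same order, over 10 mice.

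**Figure D2:**
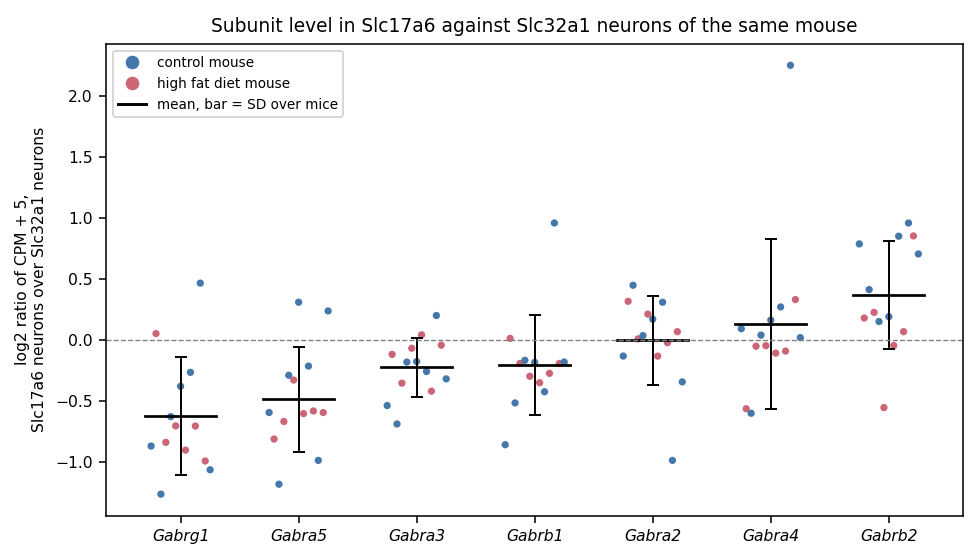
Log2 ratio of CPM + 5 in Slc17a6 neurons over Slc32a1 neurons of the same mouse (y axis) for each subunit gene (x axis, ordered by mean), 1 point for each of 13 mice, blue for control and red for high fat diet. Black lines and bars are means and SD; Gabrg1 sits lowest at −0.62 and Gabrb2 highest at 0.37.

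Astrocytes carried a different set. The class had 913 cells with a median of 676 UMIs, and 12 mice had at least 10 cells. Gabrg1 ranged from 199 to 460 CPM over mice with a median of 358 CPM, so every one of the 12 mice lay above every mouse's value in either neuron class. Gabrb1 ranged from 46.4 to 365 CPM with a median of 256 CPM, and its mean of 249 ± 91.2 exceeded that of Slc32a1 neurons, 87.5 ± 34.9, by more than the SD. Gabra4 was at 58.8 ± 31.9 CPM, a mean within 1 SD of those of Slc17a6 and Slc32a1 neurons. Gabra2 was at 49.7 ± 24.2 CPM, below both of those classes, 81.0 ± 19.6 and 81.7 ± 24.8 CPM, by more than the SD, with mouse ranges that overlapped. Gabra4 was at 0 in high fat diet mouse 1 and control mouse 1. These 4 are the genes of the chromosome 5 cluster.

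The other 3 members were near the floor in astrocytes. Over all astrocytes Gabra3 had 9 UMIs (12.8 CPM, 95% Poisson interval 5.87 to 24.4), Gabra5 had 4 (5.71 CPM, 1.56 to 14.6) and Gabrb2 had 3 (4.28 CPM, 0.88 to 12.5), intervals that cover counting error only. RNA set free from broken neurons can enter a droplet, and its part in these levels was not tested. The 8 neuron markers summed to 6.81% of their neuron level in astrocytes (441 to 2598 CPM over mice). Against this, Gabra3 stood at 4.41% of its level in neurons, Gabra5 at 4.57% and Gabrb2 at 8.23%, whereas Gabra2 stood at 60.4%, Gabra4 at 166%, Gabrb1 at 313% and Gabrg1 at 479%. With every cell thinned to 500 UMIs, Gabrg1 was seen in 14.9% of astrocytes (21.0% unthinned) and in 0.11% of oligodendrocytes (0.28% unthinned), whose median depth was 1095 UMIs. Gabrb1 was seen in 11.8% of astrocytes and 0.15% of oligodendrocytes, from 17.5 and 0.36% unthinned.

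Oligodendrocyte precursor cells, of which there were 640 with a median of 1009 UMIs, had Gabra3 and Gabrg1 above all relative to neurons. Gabra3 ranged from 74.9 to 239 CPM over 11 mice with a median of 122 CPM, and Gabrg1 from 29.96 to 124 CPM with a median of 56.4 CPM. Gabra3 stood at 47.6% of its neuron level and Gabrg1 at 106%, while the neuron markers stood at 14.4%. Of these markers Tubb3, Elavl4 and Meg3 were raised in this class over the median of all clusters. Gabrb1 (24 UMIs) stood at 39.0%, Gabrb2 (12 UMIs) at 32.0% and Gabra2 (15 UMIs) at 27.5%, also above the markers. Gabra4 and Gabra5 had 4 and 3 UMIs in all, 13.7 and 3.33% of their neuron levels.

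Mature oligodendrocytes had 0.88 to 7.95 CPM of each member, at most 3.67% of the neuron level, beside 3.21% for the neuron markers. Microglia held 0 to 3 UMIs of each member, and Gabra4, Gabra5 and Gabrb2 were at 0, for which the limit of 3 counts is 6.74 CPM and the upper end of the 95% Poisson interval 8.29 CPM. In endothelial cells Gabra3 had 20 UMIs (34.9 CPM), 12.0% of its neuron level, while the neuron markers stood at 10.8%, and 1 mouse reached 360 CPM where the median was 14.9 CPM. In mural cells each member had 0 to 7 UMIs in all; Gabrb1 and Gabra3 had 7 each, 32.2 and 9.43% of their neuron levels, beside 7.98% for the neuron markers. The part of free neuronal RNA in these low levels was not tested.

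Hypocretin neurons, which make the wake-promoting peptides of that name, numbered 136 in 2 subclusters. Gabra5 had 2 UMIs among the 1008754 UMIs of the class (1.98 CPM, 95% Poisson interval 0.24 to 7.16), against 105 CPM in Slc17a6 neurons (97.9 to 112). Over the 6 mice with at least 10 such cells it was 0 in 5, and 7.2 CPM in high fat diet mouse 3. Gabrb2 likewise had 2 UMIs, 0 in 4 of the 6 mice, against 59.6 CPM in Slc17a6 neurons. The neuron markers stood at 81.0% of their level in the main neuron classes.

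The other members had 31 to 98 UMIs each in hypocretin neurons. Gabra2 ran from 50.6 to 133 CPM over 6 mice with a median of 71.6 CPM, and its mean, 79.3 ± 29.9, differed from those of the main neuron classes by less than the SD. Gabra3 ran from 51.8 to 162 CPM with a median of 89.0 CPM, below its lowest Slc17a6 mouse of 202 CPM in all 6 mice. Gabrb1 was at 63.8 ± 20.8, Gabra4 at 37.1 ± 19.9 and Gabrg1 at 31.1 ± 13.3 CPM. With every cell thinned to 500 UMIs, Gabra2 was at 27.3 ± 42.4, Gabrb1 at 35.3 ± 56.0, Gabra4 at 20.8 ± 51.0 and Gabrg1 at 84.9 ± 93.5 CPM, with SDs larger than the means, and Gabra3 at 92.7 ± 78.2 CPM.

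MCH neurons, which make a peptide that promotes feeding and sleep, numbered 57, and only high fat diet mouse 4 had 10 or more of them, so their levels have no error over mice. Pooled over mice, Gabrg1 was at 216 CPM (95% Poisson interval 173 to 266) and Gabra2 at 186 CPM (147 to 233). Both exceeded the pooled levels of the Slc17a6 and Slc32a1 neurons, 52.2 and 83.1 CPM for Gabrg1 and 78.1 and 74.0 CPM for Gabra2. Gabra5 had 4 UMIs (9.81 CPM), Gabrb1 44 (108 CPM), Gabra3 51 (125 CPM), Gabrb2 17 (41.7 CPM) and Gabra4 10 (24.5 CPM).

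The Slc17a6 and Slc32a1 neurons were each split into subclusters, which are named here by leading genes. Values are over the mice with at least 10 cells of a subcluster, for subclusters with at least 3 such mice. Gabra5 and Gabrg1 had the largest folds between subclusters whose mouse ranges did not overlap. Gabra5 was 18.9, 0, 31.4 and 0 CPM in the 4 mice with enough Slc17a6 neurons led by Nppc, the gene for C-type natriuretic peptide. In the Slc17a6 neurons led by Otp and Sim1, transcription factors of the hypothalamus, it ran from 50.3 to 229 CPM over 11 mice with a median of 107 CPM. These ranges did not overlap, and the means of 12.6 ± 15.4 and 120 ± 53.6 CPM were 9.54-fold apart.

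Among Slc32a1 neurons, Gabra5 was highest in those led by Tac2 and Lamp5, at 179, 301, 354, 233 and 370 CPM in 5 mice (mean 287 ± 81.0). It was lowest in those led by Sst and Meis2, at 32.8 to 82.2 CPM over 7 mice with a median of 58.0 CPM (mean 56.6 ± 18.8). The means were 5.07-fold apart and the ranges did not overlap. Some smaller subclusters were as high: pooled Gabra5 was 241 CPM in Slc17a6 neurons led by Tstd1 and Ebf3, and 324 CPM in neurons of no class led by H2-K1 and Npw, each with 2 mice.

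Gabrg1 was 161, 59.8, 95.6, 129 and 50.5 CPM in the 5 mice with enough Slc17a6 neurons led by Trh, the gene for thyrotropin-releasing hormone. In Slc17a6 neurons led by Dmrta2 and Tcf7l2 it ran from 0 to 46.6 CPM over 10 mice with a median of 3.57 CPM. The means, 99.1 ± 46.4 and 13.6 ± 17.1 CPM, were 7.31-fold apart. Of the cells led by Dmrta2 and Tcf7l2, 66.5% had a UMI of the GABA synthesis gene Gad2 and 16.5% had one of Slc32a1. Among Slc32a1 neurons Gabrg1 was highest in those led by Fam81a and Icam5, at 122 to 207 CPM over 10 mice (mean 158 ± 31.4), and lowest in those led by Pvalb and Sst, at 5.81 to 86.4 CPM over 7 mice (mean 39.9 ± 31.3). Each high and low pair was picked as the extremes of 7 or 8 subclusters, so a gap between them is no test.

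The Slc32a1 neurons led by Fam81a and Icam5 also had the highest Gabra4 and Gabrb1, at 68.4 ± 27.3 and 132 ± 33.1 CPM, and those led by C1ql2 the lowest, at 17.2 ± 10.0 and 51.4 ± 20.4 CPM. In neither gene did the mouse ranges overlap. Gabra3 was highest in the Slc17a6 neurons led by Nppc, at 360, 644, 463 and 503 CPM in 4 mice, against a mean of 231 ± 69.1 CPM in those led by Plce1 and Pax6. The low Gabra5 of the neurons led by Nppc was thus not a low level of every α subunit. For Gabra2 and Gabrb2 the mouse ranges of the highest and lowest subcluster overlapped in both classes. Among the Slc17a6 subclusters, the one led by Plce1 and Pax6 is the least clear in class by Slc32a1, which had a UMI in 39.5% of its cells.

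**Figure D3:**
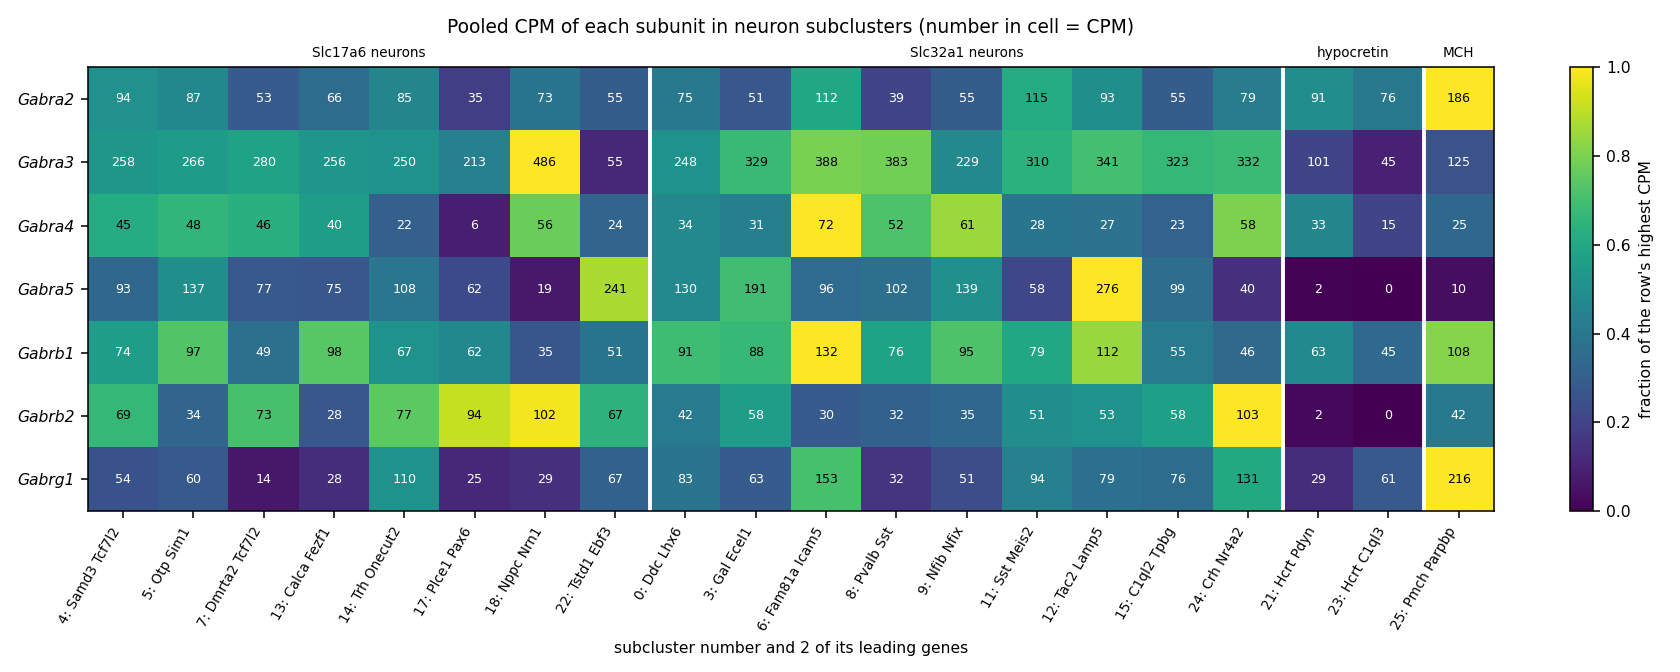
Pooled CPM (number in each cell) of the 7 subunit genes (rows) in subclusters of the named neuron classes with at least 50 cells (columns, with number and 2 of the leading genes), grouped by class; the color is the fraction of the row's highest value, on a linear scale. Among these, Gabra5 is brightest in the Tac2 and Lamp5 subcluster at 276 CPM and near 0 in hypocretin neurons, and Gabra2 and Gabrg1 are brightest in MCH neurons.

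Across 26 neuron subclusters of at least 50 cells, the pattern of each member in log2(CPM + 10) was compared with that of 6816 genes by Pearson's r. Among the genes most like Gabrb2 were the sodium channel gene Scn1a (0.88) and Myo5a (0.87). Gabrg1 was closest to Chodl (0.62), its cluster neighbour Gabra2 (0.62) and Gfra1 (0.61), and Gabra2 to Gfra1 (0.71), Chodl (0.69) and Pgm3 (0.68). The chromosome 5 genes did not all run together across neurons: r was 0.31 between Gabra4 and Gabrb1, 0.19 between Gabra4 and Gabrg1, 0.49 between Gabrb1 and Gabrg1 and 0.35 between Gabra2 and Gabrb1. Gabra5 was closest to Cd83 (0.83), Camk1g (0.82) and Cdc7 (0.81), and Gabra3 to Tenm4 (0.87), BC003965 (0.85) and Kcnh7 (0.84). Gabrb1 was closest to Arf3 (0.81), Gpld1 (0.80) and Tmem179 (0.78), and Gabra4 to Dpp6 (0.75), Cotl1 (0.68) and Grin1 (0.66). The subclusters share libraries and differ in depth, and these values are a description.

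The diets were compared within each class over mice, with UMIs summed per mouse. In Slc17a6 neurons edgeR's quasi-likelihood test called 0 of 6746 genes at a Benjamini-Hochberg adjusted p under 0.05, which is 0% of genes tested, and 101 had an unadjusted p under 0.05. DESeq2 also called 0. In Slc32a1 neurons edgeR called 1 of 7867 genes, 0.0127%, and 179 had an unadjusted p under 0.05. The gene called was Grp, which encodes gastrin-releasing peptide, named here after its value was seen. DESeq2 called 2. All 7 members could be tested in both classes and 0 passed in either.

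Gabrb2 had the most negative difference in Slc17a6 neurons. It was 46.3 to 142 CPM in control mice with a median of 76.5 CPM, and 20.1 to 96.2 CPM in high fat diet mice with a median of 52.8 CPM. The fitted log2 fold change, high fat diet over control, was −0.53 (SE 0.32, adjusted p = 1.00 by edgeR). It was −0.90 within sequencing pool 1 and −0.14 within pool 2. The mice of the diets overlapped over most of their range.

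Gabrg1 in Slc17a6 neurons was 44.5 to 91.5 CPM in control mice with a median of 56.1 CPM, and 35.1 to 87.7 CPM in high fat diet mice with a median of 42.7 CPM. The high value among the latter was mouse 1, and the other 5 lay at or below 49.3 CPM. The log2 fold change was −0.34 (SE 0.22), −0.02 within pool 1 and −0.69 within pool 2. Without the 3 mice that stood apart it was −0.60 (SE 0.21), and it did not pass there either. Gabra5 in Slc17a6 neurons was 47.0 to 156 CPM in control mice and 68.6 to 110 CPM in high fat diet mice, with a log2 fold change of −0.27 (SE 0.19). That of Gabra4 was −0.31 (SE 0.22), that of Gabra2 −0.28 (SE 0.16), that of Gabrb1 −0.11 (SE 0.20) and that of Gabra3 0.07 (SE 0.16).

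In Slc32a1 neurons Gabra2 had the most negative difference, and like the other members it did not pass (adjusted p = 0.999 by edgeR). It was 67.1 to 156 CPM in control mice with a median of 83.6 CPM, and 64.5 to 71.4 CPM in high fat diet mice with a median of 68.4 CPM. All 6 high fat diet mice were below the control mean of 93.3 CPM, and the lowest control mouse lay among them. The log2 fold change was −0.31 (SE 0.16), −0.47 within pool 1 and −0.13 within pool 2. Gabrg1 was 32.7 to 197 CPM in control mice and 69.9 to 84.5 CPM in high fat diet mice, with a log2 fold change of −0.31 (SE 0.18), which was −0.55 within pool 1 and −0.09 within pool 2. The highest and lowest of its control mice, numbers 7 and 6, had only 14 and 23 cells of the class. Gabrb1 stood at −0.26 (SE 0.19), Gabrb2 at −0.10 (SE 0.22), Gabra4 at −0.09 (SE 0.19), Gabra3 at −0.07 (SE 0.15) and Gabra5 at 0.08 (SE 0.13).

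Of the 7 members, 6 had a negative fitted difference in each class, with medians of −0.28 in Slc17a6 neurons and −0.10 in Slc32a1 neurons, beside 0.00 over all genes tested in both. The classes come from the same mice, and a sign shared among genes that did not pass is no result about diet. Every member's range of control mice overlapped its range of high fat diet mice in both classes.

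**Figure D4:**
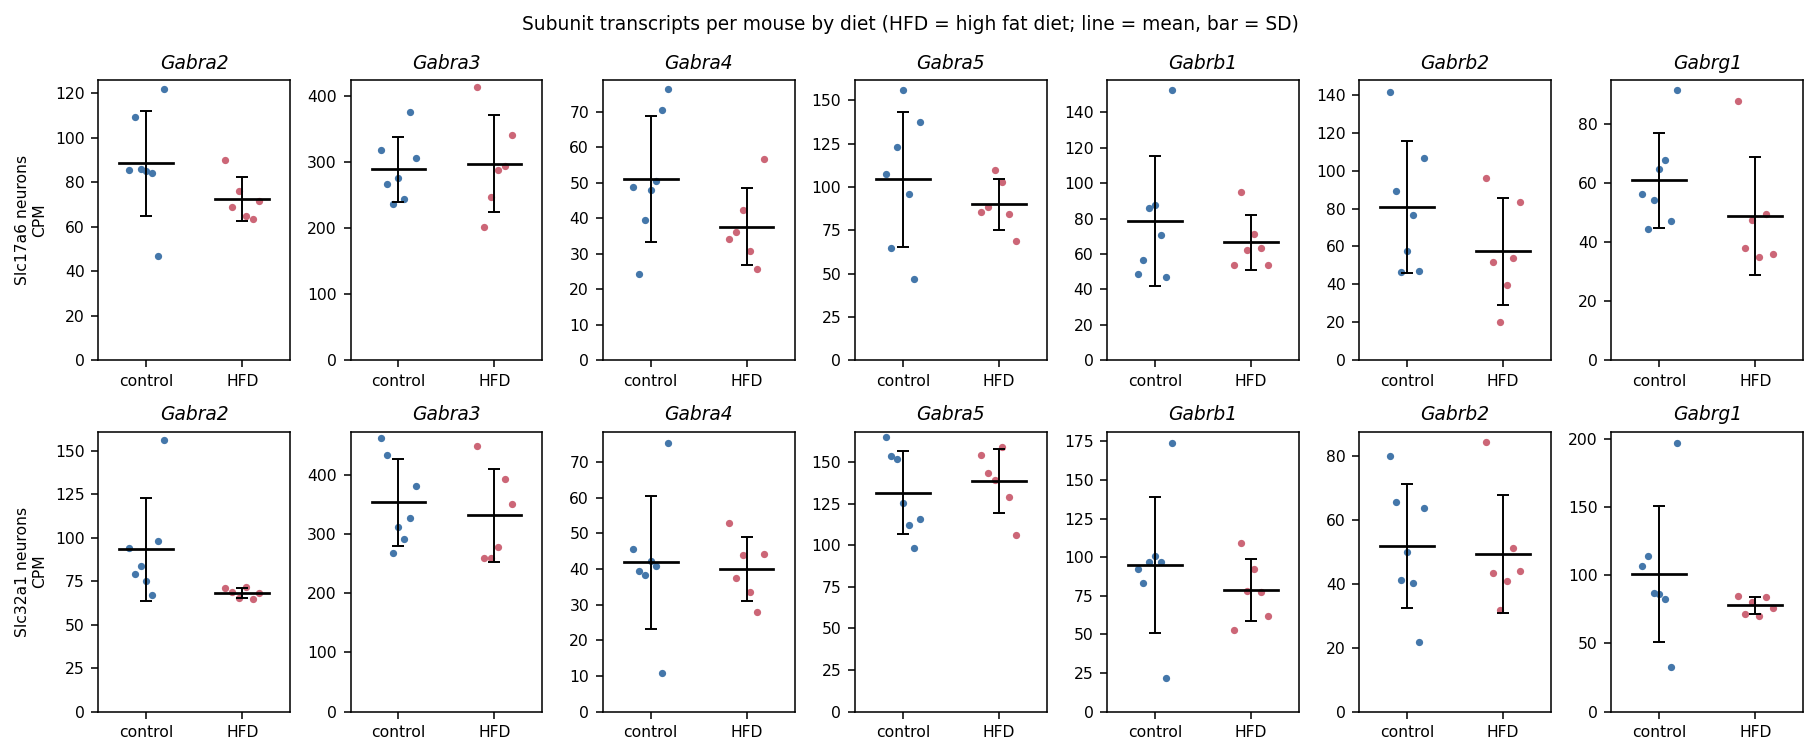
CPM (y axis, from 0) of the 7 subunit genes in Slc17a6 neurons (top) and Slc32a1 neurons (bottom) of 7 control and 6 high fat diet mice (x axis), 1 point per mouse, with the mean and SD in black. The groups overlap in each panel; in the bottom panels of Gabra2, Gabrb1 and Gabrg1 the highest control point is the mouse with 14 cells.

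A model of both neuron classes together, with a term for each mouse, tested whether the diet difference depended on the class. Of 8482 genes, 0 passed, which is 0%, with 305 at an unadjusted p under 0.05 and 0 called by DESeq2. Gabra5 had the smallest unadjusted p of the members, 0.0067 (adjusted p = 1.00 by edgeR), with a difference of the log2 fold changes, Slc17a6 minus Slc32a1 neurons, of −0.41 (SE 0.15). Gabrb2 stood at −0.41 (SE 0.20), and the others lay between −0.26 and 0.13.

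In astrocytes 0 of 666 genes were called, which is 0%, with 25 at an unadjusted p under 0.05, and only Gabrb1 and Gabrg1 of the members had enough counts to be tested. Gabrb1 was 213 to 365 CPM in control mice with a median of 303 CPM, and 46.4 to 334 CPM in high fat diet mice with a median of 217 CPM. Its log2 fold change was −0.45 (SE 0.28, adjusted p = 0.96 by edgeR). Gabrg1 was 199 to 441 CPM in control mice and 232 to 460 CPM in high fat diet mice, at 0.22 (SE 0.24). The other 5 members were under the filter on low counts, as were all 7 in oligodendrocyte precursor cells and oligodendrocytes.

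Within 12 neuron subclusters that could be tested, 41 pairs of member and subcluster had enough counts and 0 passed, where 2 of 35476 pairs of any gene passed, 0.00564%. Those 2 were Gad2 and Nefm in the Slc17a6 neurons led by Plce1 and Pax6, named after their values were seen. The members had 3 of 41 pairs at an unadjusted p under 0.05, where 1283 of the 35476 pairs of any gene did. These were Gabra5 at −1.21 (SE 0.34) in the Slc32a1 neurons led by Nfib and Nfix, Gabra5 at 0.47 (SE 0.18) in those led by Gal and Ecel1, and Gabrb1 at −0.42 (SE 0.20) in those led by Ddc. Gabra5 thus had opposite signs in 2 subclusters of 1 class, and its adjusted p was 1.00 in both.

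The other genes of GABA signaling gave no call either. Of 10 other GABA-A subunit genes in the tables, 5 were tested in each class and 0 passed. In Slc17a6 neurons Gabrg3 stood at −0.11 (SE 0.22), and in Slc32a1 neurons Gabrg3 stood at −0.29 (SE 0.20) and Gabrq at −0.29 (SE 0.21). Of 24 genes for the anchoring and trafficking of the receptor, 19 and 23 were tested and 0 passed, with medians of 0.00 and −0.07. Lhfpl4, which encodes a partner of γ subunits at synapses, was at 0.22 (SE 0.16) and Rdx, which encodes the anchor radixin, at 0.20 (SE 0.14) in Slc17a6 neurons. Gphn, which encodes the scaffold gephyrin, was at −0.18 (SE 0.14) and Plcl1 at −0.39 (SE 0.24) in Slc32a1 neurons. Of the GABA-B receptor genes 3 were tested in each class and 0 passed, with medians of −0.09 and −0.14. Gabbr1 was at −0.10 (SE 0.16) in Slc17a6 and −0.20 (SE 0.14) in Slc32a1 neurons, Kctd8 at 0.35 (SE 0.24) in the former and Gabbr2 at −0.14 (SE 0.18) in the latter.

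Of 10 genes for making, loading, taking up and breaking down GABA, 8 were tested in each class and 0 passed, with medians of −0.21 and 0.02. Gad1, which encodes a GABA-synthesizing enzyme, stood at −0.74 (SE 0.31) and Slc32a1 at −0.52 (SE 0.34) in Slc17a6 neurons. Gad1 was seen in 12.8% of the cells of this class, but in 61.4% of those led by Plce1 and Pax6. It was also seen in 69.7% of the 33 cells led by Lef1 and Synpr. Whether the number of such cells in each mouse moved these values was not tested. In Slc32a1 neurons Gad1 was at −0.05 (SE 0.10) and Abat, which encodes the enzyme that breaks GABA down, at −0.08 (SE 0.16). Chloride transport genes, which set whether GABA inhibits, gave 0 of 8 and 0 of 10, with medians of −0.01 and −0.16. The chloride importer Slc12a2 was at −0.38 (SE 0.23) and Slc4a3 at −0.26 (SE 0.13) in Slc32a1 neurons, and Slc4a10 was at −0.34 (SE 0.19) and Wnk1 at −0.28 (SE 0.22) in Slc17a6 neurons. Glycine receptor genes gave 0 of 3 in each class, with medians of 0.03 and 0.09. Glra2 was at 0.11 (SE 0.20) and 0.23 (SE 0.18), Glra1 at −0.23 (SE 0.25) in Slc17a6 neurons and Glrb at 0.09 (SE 0.16) in Slc32a1 neurons.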

How the data were processed

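The deposited values are counts of UMIs per gene and barcode, 1 table per mouse, which the authors left unnormalized. Tools named in the submitters' processing notes are STAR 2.4.2a, Picard 2.2.4 and bcl2fastq 2.18.0.12, with GRCm38 as the genome. The counting tool, its annotation and its use of strand are not stated in the labels or headers. Members and gene lists were chosen with earlier results of these data known.

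Barcodes were filtered as stated (500 UMIs, 300 genes, 20%), doublets were called with Scrublet in scanpy 1.11.5 in libraries of at least 300 cells and removed, and cells were clustered with leidenalg 0.10.2 on 2000 variable genes, 30 principal components and 15 neighbors at resolution 1, without Gabr genes. A class needed at least 3 of its markers raised 1.5-fold or more and seen in 10% of cells. The Slc17a6 and Slc32a1 classes also needed a 3-fold excess of 1 transporter. The neuron thresholds were set after seeing the data. They left out 2 subclusters with Slc32a1 in 70.8 and 100% of cells. These 2 held 0 to 2.33% of neurons in control and 0 to 3.88% in high fat diet mice. Slc32a1 was also seen in 47.0% of the neurons of no class led by H2-K1 and Npw, where Slc17a6 was at 0. Those neurons, and unnamed subclusters with both transporters, are not counted in these shares.

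Counts were summed per mouse and class (at least 10 cells) and tested in edgeR 4.0.16 with sequencing pool as covariate. DESeq2 1.42.0, the removal of single mice, other class definitions and other filters were alternatives. On simulated data with a log2 change of 1, 89.6% of 96 changed genes in Slc17a6 neurons and 91.8% of 98 in Slc32a1 neurons were recovered. In these simulations 13 and 10 unchanged genes were called. Each gene had 1 mean before the diet change, so the simulated mice had no pool effect and no set of mice stood apart. Recovery with such differences between mice was not tested. A change of 1 is larger than any member's fitted difference in these classes, and recovery at the members' sizes was not tested. Named were the 7 members, other subunits at least as abundant as the median member or in a member's chromosomal cluster, the 3 genes most like each member, and the 2 genes of each list with the smallest p. Some genes that this rule names, and values that need them, are not reported here. Each mouse is 1 replicate. Depth was 147470 to 5611524 UMIs per mouse; intervals are exact Poisson at 95% and cover counting error only.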

Additional observations from a re-analysis of the deposited data

Results flagged for a closer look

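Over the members in Slc17a6 neurons, Slc32a1 neurons and astrocytes, 42 groups of 6 or 7 mice were examined for 1 mouse far from the rest. The rule marked 7 such values. It marks about 1 in 20 groups only where values have a normal spread. A group where all mice but 1 are at 0 is always marked, so the number found cannot be set against that rate. Control mouse 7 had 156 CPM of Gabra2 in Slc32a1 neurons, where the next mouse had 98.0 CPM, from 14 cells and 27 UMIs. The same mouse had 153 CPM of Gabrb1 in Slc17a6 neurons, where the next had 87.8 CPM, from 10 cells and 10 UMIs. High fat diet mouse 1, 1 of the 3 that stood apart, had 87.7 CPM of Gabrg1 in Slc17a6 neurons (next 49.3 CPM, 124 cells) and 84.5 CPM of Gabrb2 in Slc32a1 neurons (next 51.3 CPM, 133 cells). In astrocytes it had 20.0 CPM of Gabra5 from 1 UMI and 40.0 CPM of Gabrb2 from 2 UMIs, where the other high fat diet mice were at 0. Control mouse 5 had 9.46 CPM of Gabrb2 in astrocytes from 1 UMI, where the other control mice were at 0.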

How the results depend on the processing

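Of 429 values of the members' diet differences under alternatives, 0 passed the test and 416 kept their sign. The reversed ones were near 0. Gabra3 in Slc17a6 neurons was −0.051 in pool 2 alone and −0.0299 to 0.17 with single mice left out (negative without high fat diet mouse 1). In Slc32a1 neurons Gabra3 was 0.10 in pool 2 alone, 0.011 without the 3 mice that stood apart, and −0.16 to 0.015 with single mice left out (positive without control mouse 1 or high fat diet mouse 3 or 4). Gabrb2 there was 0.051 in pool 2 alone and −0.28 to 0.037 with single mice left out (positive without control mouse 1 or high fat diet mouse 3). In the interaction, Gabra2 was −0.080 to 0.0196 with single mice left out (positive without control mouse 5 or high fat diet mouse 4), and Gabrb1 was −0.0256 without the 3 mice. The count of genes called in Slc17a6 neurons was 2 with no filter on low counts and 0 with each mouse left out. In Slc32a1 neurons it was 2 with DESeq2, 3 with no filter, 2 without the pool covariate, and 0 in pool 1 alone, in pool 2 alone and without the 3 mice. With single mice left out it ran from 0 (without control mouse 1, 3 or 4 or high fat diet mouse 2 or 4) to 2 (without high fat diet mouse 5). For the interaction it ran from 0 to 3 (3 without control mouse 7, 1 without control mouse 4 or 5 or high fat diet mouse 5). In subclusters it was 0 without the 3 mice. With every cell thinned to 500 UMIs, the log2 ratio of the neuron classes moved to −0.61 (SD 1.93) for Gabra3 and 0.54 (SD 2.22) for Gabrb1; the other 54 of 56 ratios stayed within 1 SD. Of 378 class levels, 7 moved by more than 1 SD: thinned, Gabra5 in Slc32a1 neurons was 102 CPM, and in hypocretin neurons Gabra2 was 27.3, Gabrb1 35.3 and Gabrg1 84.9 CPM; the other 3 were in mural cells. Depth limits the glial and hypocretin levels, where a member at 1 UMI in a mouse is several CPM. No paired analysis was possible because the replicate numbers only give the order of mice within a diet.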
